A study of Homo sapiens with 6 samples.

Results

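Cytosolic ribosomal protein genes were examined by RNA sequencing in Kasumi-1, a line of human acute myeloid leukaemia cells with the t(8;21) translocation, after knockout of SETD8. SETD8, whose current symbol is KMT5A, adds a methyl group to histone H4 and was targeted with CRISPR/Cas9. The knockout group had 3 libraries (sgSETD8) and the control group had 3 libraries of cells that carried a non-targeting guide and the label WT (sgNT). All libraries came from the same line in the same medium, and it is not stated if a number marks a culture, a clone or a guide. The p-values therefore measure the spread between these libraries, which may be technical. Members were the protein-coding genes of the deposited table whose symbol starts with RPL or RPS and a digit, or with RPLP and a digit, or is RPSA, with the RPS6K kinases left out. The rule found 39 members among 7983 listed genes.

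The ribosome is built from a 40S subunit, which reads the messenger RNA, and a 60S subunit, which joins the amino acids. Each holds ribosomal RNA and many small basic proteins whose amounts are normally kept in proportion, because an unpaired ribosomal protein is degraded. Inherited loss of 1 copy of several of these genes causes Diamond-Blackfan anaemia, a failure of red cell production, and loss of RPS14 contributes to a form of myelodysplastic syndrome.

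Of the members, 22 encode 60S proteins and 11 encode 40S proteins. Another 5 encode paralogs of ribosomal proteins (RPL7L1, RPL22L1, RPL26L1, RPL36AL and RPS27L). The last, RPS19BP1, is named for binding RPS19 and is not a ribosomal protein, but it met the rule. A written list of 80 ribosomal proteins had 36 genes in the table, some of which, such as FAU and RACK1, carry other symbols and are not members. The other 44, among them RPSA, RPL11, RPS19, RPLP0 and RPLP2, were not analysed here. The authors' deposited table lists genes by its own unadjusted p, of which the largest is 0.049998, so every member had been selected for a difference between these libraries.

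Depth in listed genes was 10966349 to 12557974 reads per library. KMT5A itself read 1191, 1212 and 1255 normalized reads across the controls and 880, 933 and 939 across the knockouts (log2 fold change -0.41). All 10 written markers of Kasumi-1 myeloid blasts were listed, with a summed level of 86051 to 89126 in control and 64821 to 66845 in knockout libraries. For T cells 3 of 5 markers were listed (1037 to 1070 and 1265 to 1518), for B cells 3 of 4 (903 to 1103 and 1387 to 1596), and for epithelium EPCAM alone of 4 (1277 to 1432 and 1857 to 2044). The 6 erythroid and 4 fibroblast markers were not analysed here. The part of these markers in the results was not tested, and in bulk RNA fewer cells of a type and less RNA per cell cannot be told apart.

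Members were among the most abundant transcripts of the table, with 25 of the 39 within the top 100 listed genes by mean level. On the scale of normalized reads, RPL4 ranked highest among members. RPL4 is a 60S protein that reaches into the exit tunnel of the ribosome, and its gene read 49786, 49641 and 51874 in control and 65781, 63115 and 56518 in knockout libraries. RPS2, a 40S protein, followed with a mean of 56663 ± 2321 in control and 41336 ± 3524 in knockout libraries (SD, n = 3 per group here and below). RPL13A had 45926 ± 1808 and 49920 ± 3469. Divided by the table's gene length, the order changed: RPL8 led with 21052 normalized reads per kilobase over all libraries, then RPS2 with 20306 and RPL13A with 20229. That length sums every annotated exon, so genes with long rare exons stand too low on this scale.

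Some 60S and 40S genes were far less abundant than the rest. RPL17 had 344 ± 80.6 normalized reads in control libraries, against 5418 or more for all other 60S members. RPS15A, a 40S gene, had 2209 ± 195. In GENCODE release 29, RPL17 shares its strand with the read-through gene RPL17-C18orf32, and RPS15A shares its strand with 1 other annotated gene. RPS2, RPL13A and RPL18 also share their strand with 1 other annotated gene each. The counting of reads in shared exons is not stated, which leaves the levels and changes of these genes uncertain.

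The libraries of the knockout group were not alike for these genes. SETD8 knockout 1 was the highest of its group in 33 of 39 members, against 38.3% of all tested genes. SETD8 knockout 3 was the lowest of its group in 36 of 39 members, against 39.3% of all tested genes. Members together took 6.23%, 6.14% and 6.34% of the listed normalized reads in controls 1 to 3, and 6.49%, 6.11% and 5.66% in knockouts 1 to 3. The groups overlapped, and the knockout libraries spanned a wider range than the controls. The 60S members took 4.52%, 4.39% and 4.54% in control and 4.78%, 4.46% and 4.17% in knockout libraries. For the 40S members the shares were 1.64%, 1.69% and 1.73% against 1.62%, 1.56% and 1.41%, with all knockout libraries below all controls. RPS2, the most abundant 40S gene, carried that difference: without it the shares were 1.16%, 1.18% and 1.21% against 1.26%, 1.21% and 1.09%, and the groups overlapped.

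Messenger RNAs of ribosomal proteins are known for a terminal oligopyrimidine (TOP) tract, a C at the first base followed by a run of C and T, through which mTORC1 and LARP1 control their translation. RefSeq start sites (GRCh38.p14) matched 29 of the 39 members by symbol. A C at the annotated start followed by at least 4 further C or T bases stood at the start of 16 of the 24 matched 60S and 40S genes. Where a gene had several annotated starts, the one with the longest such run was used. Counted in that way, 5.14% of the 27305 genes in the RefSeq table held the tract (4.07% of all promoters). The tract was present in 5 of 9 genes that rose, 5 of 8 that fell and 6 of 7 that did not pass the test. The windows below show 15 bases before and 15 from the start, 5′ to 3′ on the coding strand, with the tract in capitals, for some of the genes that hold it among those that fell and those that rose. They show that the tract occurs in members of either direction; RPL19, RPL27 and RPS4X, which fell, and RPS15 and RPS26, which rose, had none at their annotated start.
RPL12, fell, chr9:127451392-127451421, minus strand: ccgcgcgatttccggCCTCTCggctttcgg
RPL38, fell, chr17:74203663-74203692, plus strand: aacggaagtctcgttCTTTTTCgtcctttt
RPS21, fell, chr20:62387088-62387117, plus strand: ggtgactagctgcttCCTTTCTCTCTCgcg
RPLP1, fell, chr15:69452803-69452832, plus strand: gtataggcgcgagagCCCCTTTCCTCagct
RPS14, rose, chr5:150449725-150449754, minus strand: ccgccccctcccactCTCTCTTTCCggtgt
RPS16, rose, chr19:39435935-39435964, minus strand: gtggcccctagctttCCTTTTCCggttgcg
RPL18, rose, chr19:48619164-48619193, minus strand: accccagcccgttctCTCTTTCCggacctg
RPL24, rose, chr3:101686704-101686733, minus strand: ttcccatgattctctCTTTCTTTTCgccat
Of the 5 paralogs, only RPL22L1 had the tract, and RPS27L did not.
RPL22L1, fell, chr3:170870181-170870210, minus strand: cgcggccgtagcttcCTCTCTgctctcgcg
RPS27L, rose, chr15:63157463-63157492, minus strand: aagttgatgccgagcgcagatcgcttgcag
Some RefSeq starts lie well inside the gene as the table draws it, by 288 bases in RPL22L1, 358 in RPL18, 544 in RPS27L, 567 in RPS26, 7396 in RPL6 and 19677 in RPL4. The last 3 are counted above as genes that rose without a tract. A tract at an annotated start is a match of letters, and a start without it shows only that this annotated base does not begin one.

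Ribosomal protein genes changed in both directions in SETD8 knockout cells, and by modest amounts. Of the 39 members, all tested, 19 were higher and 12 were lower, and 8 did not pass the test (limma-trend on log2(value + 1), Benjamini-Hochberg adjusted p below 0.05). In the same fit 94.1% of all 7516 tested genes were called, 47.3% higher and 46.7% lower, and the table itself was selected for change, so the share of members called is no result about them. The median size of the log2 fold change was 0.29 for members and 0.52 for all tested genes, and the median with its sign was 0.20 for members and 0.14 for all tested genes. A table listed by p admits smaller changes in abundant genes than in scarce ones, and members are abundant. Sizes were not compared with those of genes of similar level, so the smaller size is no result about members. All 3 knockout libraries lay above all controls in 19 members (48% of all tested genes) and below them in 11 (47.4%), and the groups overlapped in 9. Among all tested genes the groups did not overlap in 95.4%.

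The edges of these counts rested on single libraries. Without SETD8 knockout 1 there were 15 higher and 14 lower members, and without SETD8 knockout 3 there were 23 and 9. Without control 2 the counts were 13 and 10, since RPL6, RPL13, RPL19, RPL24, RPL26L1, RPL37, RPS4X, RPS14 and RPS19BP1 lost their calls. Upper-quartile scaling gave 16 higher and 15 lower. All 39 members kept the sign of their log2 fold change under TMM and upper-quartile scaling. By edgeR's quasi-likelihood test on recovered reads 20 members were higher and 12 lower, with 95.3% of all genes called (46.6% higher, 48.7% lower). DESeq2 gave 18 and 12, losing RPL37, with 91.7% called (44.7% and 46.9%). By the authors' deposited adjusted p, 19 members were higher and 11 lower at the same threshold. There RPL35A (0.068) and RPL37 (0.0908) did not pass, and RPL5 (0.0366) did. After removal of a trend with gene length and GC content, 18 were higher and 13 lower, against 81.4% of all genes called (41.9% and 39.6%), and RPL36AL and RPL26L1 lost their calls.

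**Figure D1:**
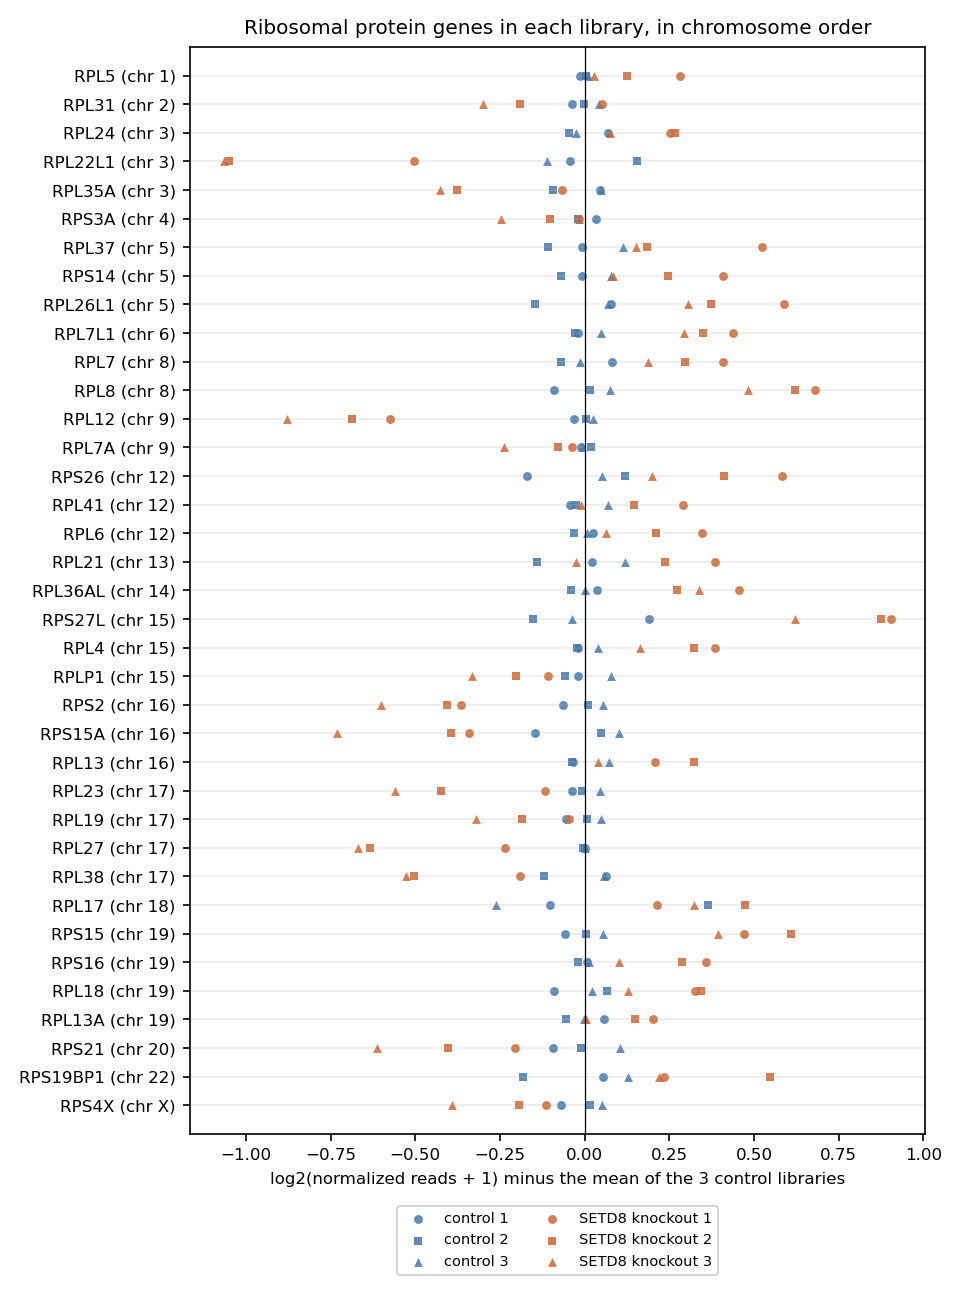
Level of 37 members in each library, as log2(normalized reads + 1) minus the mean of the 3 control libraries, with members in chromosome order from top to bottom. Blue marks are control libraries and orange marks are SETD8 knockout libraries; the 4 members on chromosome 17 lie left of 0 and those drawn on chromosome 19 lie at or right of 0 in the knockout libraries.

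Among the 60S genes, 8 were higher, 7 were lower and 7 did not pass. RPL8, which lies beside the catalytic centre of the ribosome, rose most (ENSG00000161016, chromosome 8, 144789765 to 144792587, hg38). It read 33996, 36533 and 38070 in control and 57902, 55653 and 50552 in knockout libraries, so the groups stood well apart. Its log2 fold change was 0.59 (SE 0.07, adjusted p = 4.08e-07), a 1.51-fold higher level. RPL7, also a 60S protein encoded on chromosome 8, rose from 25912, 23367 and 24294 in controls to 32493, 30064 and 27897 in knockouts, without overlap (log2 fold change 0.30, SE 0.07, adjusted p = 0.000979). RPL18, a Diamond-Blackfan gene, read 11842, 13204 and 12802 in controls and 15793, 15994 and 13777 in knockouts, all of them above the controls. RPL4, RPL37, RPL18, RPL6, RPL24 and RPL13 were the other 60S genes that rose, with log2 fold changes from 0.19 to 0.29.

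RPL12 fell most among the 60S genes (ENSG00000197958, chromosome 9, 127447674 to 127451405). RPL12 sits at the base of the stalk that recruits translation factors. It read 20707, 21241 and 21547 in control and 14222, 13158 and 11510 in knockout libraries. No knockout library came near the controls, and the log2 fold change was -0.71 (SE 0.07, adjusted p = 1.14e-08), a 1.63-fold lower level. RPLP1, an acidic protein of the same stalk, read 31863, 31046 and 34108 in controls and 29993, 28085 and 25679 in knockouts. SETD8 knockout 1 was just below the lowest control (log2 fold change -0.21, SE 0.07, adjusted p = 0.0145). Leaving out control 3 or SETD8 knockout 3 ended the RPLP1 call.

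The other 60S genes that fell were RPL27, RPL38, RPL23 and RPL19, all on chromosome 17, and RPL35A on chromosome 3. RPL27 is mutated in some cases of Diamond-Blackfan anaemia, and read 17354, 17289 and 17368 in control and 14727, 11180 and 10914 in knockout libraries. SETD8 knockout 1 was the closest to the controls, and all 3 lay below them (log2 fold change -0.51, SE 0.08, adjusted p = 1.74e-05). RPL38, known for roles in the translation of a subset of developmental messages, fell from 13449 ± 953 to 10179 ± 1364. RPL23, which can bind and inhibit MDM2, fell from 18292 ± 522 to 14303 ± 2302. RPL19 had the smallest of these changes, from 26830 ± 954 to 23686 ± 2247 (log2 fold change -0.18), with overlapping groups. RPL35A, another Diamond-Blackfan gene, read 18439, 16764 and 18474 in controls and 17081, 13762 and 13308 in knockouts. Its groups overlapped through SETD8 knockout 1 and control 2 (log2 fold change -0.29, SE 0.07, adjusted p = 0.00361).

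The 7 60S genes that did not pass were RPL5, RPL7A, RPL13A, RPL17, RPL21, RPL31 and RPL41, with log2 fold changes between -0.15 and 0.34. RPL5 carries the 5S RNA into the ribosome and, when free, restrains MDM2. Its 3 control libraries read 23481, 23806 and 23886 and its knockout libraries 28852, 25866 and 24178. All knockout libraries were above all controls, but by little in SETD8 knockout 3 (log2 fold change 0.14, SE 0.07, adjusted p = 0.0996). In the other 6 the groups overlapped or nearly met. RPL13A, a 60S protein with a separate role in silencing inflammatory messages, read 47769, 44154 and 45857 in controls and 52820, 50864 and 46077 in knockouts, with SETD8 knockout 3 among the controls. RPL41, the smallest ribosomal protein, read 18798, 19061 and 20320 in controls and 23712, 21448 and 19229 in knockouts, again with SETD8 knockout 3 among the controls. RPL21 read 5482, 4897 and 5873 in controls and 7049, 6372 and 5313 in knockouts.

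RPL7A and RPL31 had log2 fold changes below 0. RPL7A read 34826, 35494 and 34873 in controls and 34146, 33178 and 29709 in knockouts. All 3 knockouts were below the controls, but SETD8 knockout 1 by little (log2 fold change -0.12, adjusted p = 0.217). RPL31, a Diamond-Blackfan gene, read 16030, 16435 and 16941 in controls and 17057, 14411 and 13382 in knockouts, so its knockouts spanned both sides of the controls. RPL17 read 315, 435 and 281 in controls and 392, 470 and 423 in knockouts, with control 2 between the knockouts.

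Among the 40S genes, 6 were higher, 4 were lower and only RPS3A did not pass. RPS3A read 19848, 19138 and 19172 in controls and 19154, 18075 and 16326 in knockouts, with SETD8 knockout 1 level with 2 of the controls. RPS15, a protein of the 40S head, rose (ENSG00000115268, chromosome 19, 1438358 to 1440494). It read 10633, 11120 and 11500 in control and 15363, 16906 and 14556 in knockout libraries, with no overlap (log2 fold change 0.49, SE 0.06, adjusted p = 8.19e-07). RPS26, which contacts the messenger RNA at the exit side, read 6699, 8174 and 7804 in controls and 11283, 10009 and 8652 in knockouts, all above the controls (log2 fold change 0.40, adjusted p = 0.000311). RPS14 on chromosome 5 read 23718, 22693 and 25158 in control and 31607, 28293 and 25254 in knockout libraries. SETD8 knockout 3 was close to control 3, and the log2 fold change of 0.25 (SE 0.07, adjusted p = 0.00925) lost its call without SETD8 knockout 1 or without control 2. RPS16, on chromosome 19, rose by log2 0.25.

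The 40S genes that fell were RPS15A, RPS2, RPS21 and RPS4X. RPS2 (ENSG00000140988, chromosome 16, 1962052 to 1964860) read 54195, 56991 and 58803 in control and 43981, 42691 and 37335 in knockout libraries. All knockout libraries were below all controls (log2 fold change -0.46, SE 0.07, adjusted p = 2.04e-05). RPS21, on chromosome 20, fell from 10138 ± 701 to 7684 ± 1083, with all knockouts below all controls. RPS15A, also on chromosome 16, read 1989, 2276 and 2361 in controls and 1740, 1674 and 1328 in knockouts, again without overlap (log2 fold change -0.49, adjusted p = 6.67e-05). RPS4X, on the X chromosome, read 30790, 32698 and 33519 in controls and 29881, 28228 and 24644 in knockouts. SETD8 knockout 1 was close to control 1, and it was a call that ended without control 2, without control 3 or without SETD8 knockout 3.

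All 5 paralogs passed the test, 4 of them higher. RPS27L, a paralog of RPS27, read 316, 249 and 270 in control and 519, 508 and 426 in knockout libraries. It rose 1.74-fold, with no overlap (log2 fold change 0.80, SE 0.12, adjusted p = 8.97e-06). RPL22L1, which can stand in for RPL22, was the only paralog that fell, at 606, 695 and 578 in control and 440, 301 and 298 in knockout libraries. That was a 1.81-fold lower level (log2 fold change -0.87, SE 0.13, adjusted p = 7.13e-06). In RPL7L1, a factor of 60S assembly, the controls read 4525, 4490 and 4736 and the knockouts 6203, 5843 and 5619. RPL36AL read 1641, 1557 and 1601 in controls and 2195, 1932 and 2020 in knockouts, so in both genes the groups stood apart. RPL26L1 rose from 246 ± 21.3 to 331 ± 34.8, and RPS19BP1 rose from 649 ± 70.5 to 819 ± 109.

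Genes of Diamond-Blackfan anaemia moved both ways, as the members did. Of 19 written genes 8 were listed. In this list 3 genes were higher, among them RPL18 and RPS26. RPL27, RPL35A and RPS15A were lower, and RPL5 and RPL31 did not pass. Their median log2 fold change was -0.00096, against 0.14 for all tested genes.

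In 33 of 39 members the log2 fold change had the sign of the median of the other tested genes on the same chromosome. The same share over all tested genes was not counted for whole chromosomes. On chromosome 17, all 4 members fell, and 24.4% of the 542 other tested genes there had a log2 fold change above 0. On chromosome 19, all 5 members had a log2 fold change above 0 and 4 were called higher, beside 67.5% of 504 other genes above 0. Both members on chromosome 8 rose, where 71.2% of 271 other genes were above 0. Both on chromosome 9 lay below 0, with RPL12 called, where 23.4% of 334 other genes were above 0. Members of 1 chromosome were not always alike: on chromosome 16, RPS2 and RPS15A fell while RPL13, at the other end of the chromosome, rose. On chromosome 15, RPL4 and RPS27L rose while RPLP1 fell, and on chromosome 3, RPL24 rose while RPL35A and RPL22L1 fell.

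The closer surroundings showed a similar relation, with a shared sign in somewhat fewer members. The other tested genes with their midpoint within 5 Mb of a member were taken as its neighbours, without ribosomal protein genes and their pseudogenes. In 31 of 39 members (79.5%) the log2 fold change had the same sign as the median of its neighbours. For all tested genes with neighbours, 65.2% of 7455 had the sign of their neighbours' shift, and the difference between these shares was not tested. Of 17 called members whose neighbours had a median above 0, 16 were higher and 1 was lower. Of 14 called members with a neighbour median below 0, 11 were lower and 3 were higher. Across the 39 members, the log2 fold change and the neighbour median had a Pearson r of 0.72 and a Spearman rho of 0.70. Within 2 Mb the signs agreed in 28 of 38 members (73.7%, Spearman rho 0.58), and within 10 Mb in 30 of 39 (76.9%, rho 0.69). This is a description over genes of the same 6 libraries, in which nearby members such as RPL19 and RPL23 also share neighbours. The neighbours, too, are listed genes selected for change.

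**Figure D2:**
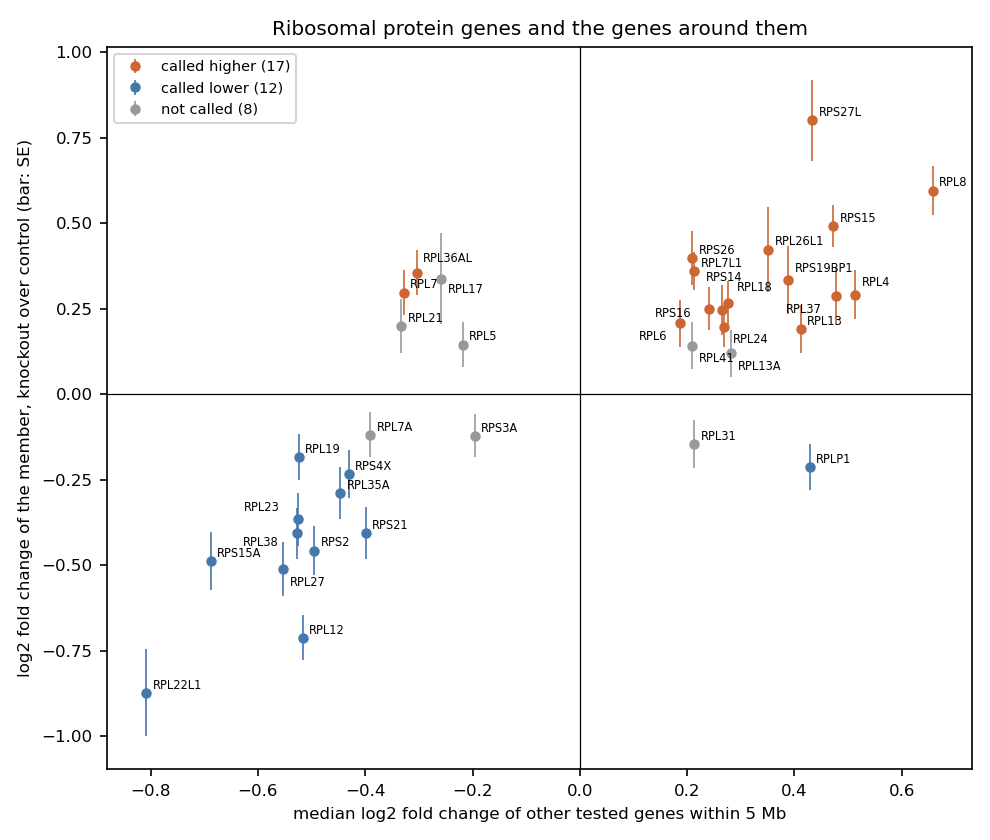
Log2 fold change of 37 members with its standard error (vertical axis) against the median log2 fold change of the other tested genes within 5 Mb (horizontal axis), coloured by call. Most points lie at the upper right and lower left; RPLP1 lies at the lower right, and RPL7 and RPL36AL are called members at the upper left.

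In some members the values were close. RPL8 had 62 neighbours with a median log2 fold change of 0.66, beside its own 0.59. RPS15 had 102 neighbours with a median of 0.47, beside 0.49. RPS2 had a neighbour median of -0.49 over 73 genes, beside its own -0.46. RPL27 had a neighbour median of -0.55 over 124 genes, beside -0.51. RPL22L1 had a neighbour median of -0.81 over 12 genes, beside -0.87. Others lay far from their surroundings, such as RPLP1 (-0.21 against 0.43), RPL36AL (0.36 against -0.30) and RPL7 (0.30 against -0.33).

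A fit over all genes then tested each gene against its neighbours, by subtracting from every library the median deviation of the genes within 5 Mb. In that fit 11 members were higher than their surroundings and 3 were lower, 35.9% of the 39, against 63% of the 7455 genes tested this way (30.8% higher and 32.3% lower). The median size of the members' log2 fold change relative to neighbours was 0.15, against 0.45 for all genes. Neither this size nor the share called was compared with genes of similar level, so members cannot be called closer to their neighbours than other abundant genes. Of the 31 members called without this step, 22 were no longer called, 7 were called in the same direction and RPL19 and RPL4 were called in the opposite one. With neighbours within 2 Mb neither opposite call held (adjusted p = 0.0712 and 0.124); that of RPL19 held within 10 Mb and on the whole chromosome, and that of RPL4 did not. In 13 of the 31 the remaining log2 fold change was under 0.1 in size.

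RPL8 was at -0.0037 relative to its neighbours (SE 0.07), RPS2 at -0.0027 (SE 0.07) and RPL27 at 0.02 (SE 0.08). RPS15, RPL18, RPL6 and RPL24 stood between 0.03 and 0.04, and RPS14 at -0.02. RPL12 kept -0.15 (SE 0.07, adjusted p = 0.177) of its -0.71. None of these passed the test at 5 Mb, which does not show that they moved alike. With other windows some did: RPL12 was lower than the genes within 10 Mb (-0.20, adjusted p = 0.0333) and on its chromosome (-0.23). RPL24 was higher than those within 2 Mb (0.30, adjusted p = 0.00275) and on its chromosome (0.26), and RPL8 and RPS15 were higher than the rest of their chromosomes by 0.21 and 0.19.

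**Figure D3:**
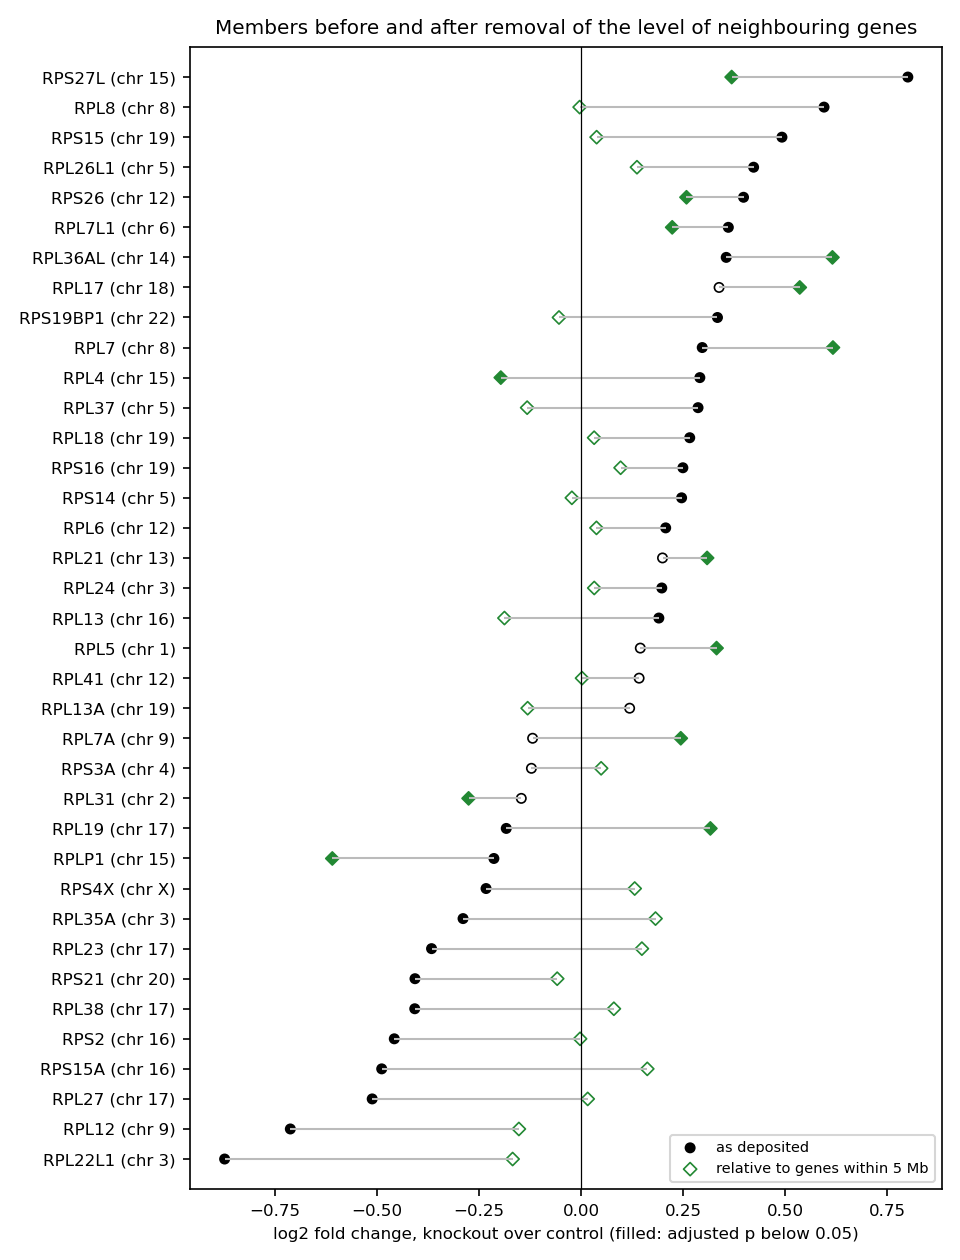
Log2 fold change of 37 members as deposited (black circles) and relative to the genes within 5 Mb (green diamonds), ordered by the first, with filled marks for an adjusted p below 0.05. The diamonds gather near 0, and 13 of the 37 are filled.

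The members that stood apart from their surroundings came from both subunits. RPL7, with only 8 neighbours at a median of -0.33, was higher than they were by log2 0.62, as was RPL36AL by 0.62. RPL17, RPS27L, RPL5, RPL19, RPL21, RPS26, RPL7A and RPL7L1 were higher by 0.22 to 0.54. For RPL5 the difference was 0.33 (SE 0.07, adjusted p = 0.000395), although its own change did not pass the test. RPLP1 was the member furthest below its surroundings, by 0.61 (SE 0.06, adjusted p = 1.25e-07): its 38 neighbours had a median of 0.43. RPL31 was lower by 0.28 and RPL4 by 0.20. The RPL4 value was -0.17 at 2 Mb, 0.03 at 10 Mb and 0.14 on the whole chromosome, none of which passed. On the whole chromosome RPL31, RPL5 and RPL7 also lost their calls, at 0.0050, -0.06 and -0.09, as did RPS26 at 0.20, and RPS27L lost its call at 2 Mb. RPLP1, RPL7A, RPL7L1, RPL17, RPL21 and RPL36AL were called in the same direction with all of these windows.

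Processed pseudogenes, intronless copies of these messages inserted elsewhere in the genome, offered a contrast in location. The table held 21 processed pseudogenes of the same prefix and 1 transcribed processed pseudogene, RPL6P27. Of these 22, 15 had a mean of at least 10 and were tested. Among the 14 tested processed pseudogenes, 4 were higher and 8 were lower (median log2 fold change -0.33), beside 47.3% higher and 46.7% lower of all tested genes. Of those that fell, RPL21P44 and RPL9P29 had means of only 10.4 and 18.1 normalized reads over all libraries. Upper-quartile scaling left 1 of them higher, and without a length and GC trend 0 were higher. Near-identical copies can share reads with the gene they came from, so all of these values, and those of the parent genes, are uncertain.

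A parent in the table was tested beside its pseudogene in 9 cases. In 8 of the 9 the pseudogene and its parent had log2 fold changes of the same sign, while 3 of the 9 shared the sign of the genes around the pseudogene. RPS2P46, RPS2P5 and RPS2P55 share the parent RPS2, so their pairs are not separate observations. RPS2P46 on chromosome 17 and RPS2P5 on chromosome 12, which match RPS2 over 98.6% and 98.7% of their aligned bases, fell by 0.31 and 0.34 on the log2 scale. RPS2 fell too, whereas the neighbours of these pseudogenes had medians of 0.31 and 0.27. RPS2P46 read 1676, 1444 and 1886 in control and 1257, 1554 and 1235 in knockout libraries, with overlapping groups. RPS2P55, on the X chromosome at 34.7 ± 12.1 and 16.5 ± 2.39, did not pass the test.

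In the other pairs the parent rose or did not pass the test. RPL4P4 on chromosome 3, 98.4% identical to RPL4, read 464, 376 and 439 in controls and 557, 550 and 475 in knockouts (log2 fold change 0.31, against 0.29 for RPL4 and -0.37 for its own neighbours). RPL6P27 on chromosome 18, 99.3% identical to RPL6, rose by log2 0.17, beside 0.21 for RPL6 and -0.30 for its neighbours. The RPL6P27 call (adjusted p = 0.0410) held without a filter (0.0363). It was lost with TMM scaling (adjusted p = 0.0560), upper-quartile scaling (0.219), edgeR (0.0579) and DESeq2 (0.0603). RPL7P1 read 2282, 2363 and 2544 in controls and 3303, 3030 and 2458 in knockouts, with SETD8 knockout 3 among the controls. Its log2 fold change of 0.28 had the sign of its neighbours (0.27) as well as of RPL7. Its ratio to RPL7 was steady, at 9.77% of its level in control and 9.72% in knockout libraries. RPL13AP5 and RPL13A had log2 fold changes of 0.19 and 0.12, neither of which passed, and the neighbours of RPL13AP5 centred on -0.64. Once the trend with length and GC content was taken out, RPL6P27 and RPL13AP5 turned to -0.14 and -0.24, while RPL6 and RPL13A stayed above 0 at 0.25 and 0.03. The exception to the shared sign with the parent was RPL21P44, at 16.9 ± 5.24 and 3.81 ± 4.90, which fell while RPL21 lay at 0.20 and did not pass. RPL21P44 is 92.0% identical to RPL21 over the aligned bases, and its neighbours had a median of -0.10. RPL7AP28, 82.4% identical to RPL7A, fell by 0.64, beside -0.12 for RPL7A and -0.31 for its neighbours.

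**Figure D4:**
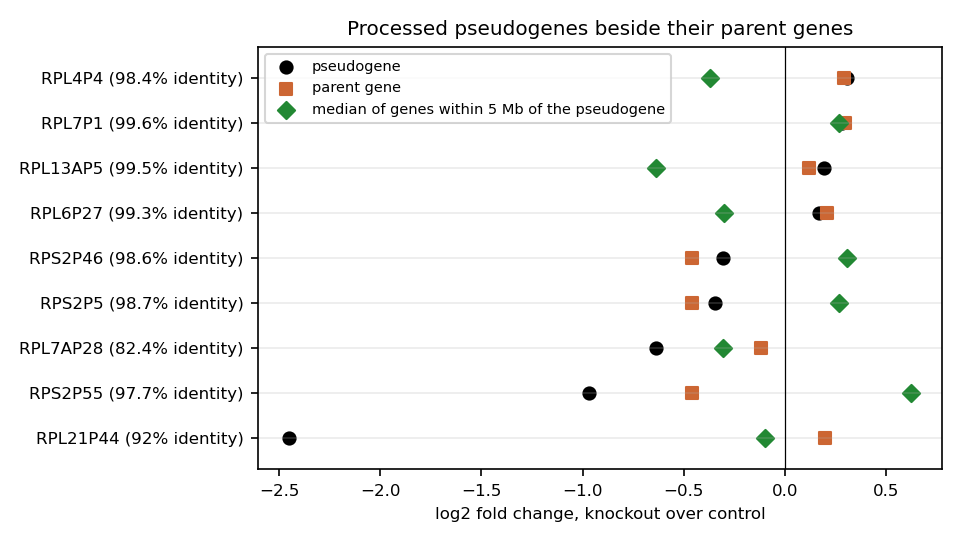
Log2 fold change of 9 pseudogenes (black circles), of their parent genes (orange squares) and the median of the tested genes within 5 Mb of the pseudogene (green diamonds); percentages are the identity of the aligned bases. Circles lie on the same side of 0 as squares in 8 of the 9 rows.

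The other 6 tested pseudogenes had no parent in the table. RPS28P7 had the highest level, 9145 ± 965 in control and 10548 ± 570 in knockout libraries, and rose by log2 0.21. RPL15P3 rose by 0.24; without the length and GC trend both turned, to -0.42 and -0.14. RPL39P3 fell from 1781 ± 142 to 1426 ± 139. RPL29P11, RPL11P3 and RPL9P29 fell as well. RPL29P11 read 89.9, 265 and 119 in control and 89.6, 75.5 and 66.3 in knockout libraries, so control 2 stood far above every other library.

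FAU and RACK1, ribosomal proteins with other symbols, rose. FAU, whose product releases a 40S protein, went from 6511 ± 219 to 8378 ± 570. RACK1, a scaffold on the 40S head, went from 28152 ± 1598 to 31798 ± 1996 (log2 fold change 0.18). Relative to the genes within 5 Mb, neither passed, with log2 values of 0.03 and -0.16.

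Other genes of the pathway were read from written lists, whose counts stand beside the 94.1% of all tested genes called (47.3% higher) and so say little by themselves. Chaperones that escort single ribosomal proteins had 6 listed genes of 8, and all 6 rose, with a median log2 fold change of 0.38. PDCD2L and PDCD2, which serve RPS2, rose by 0.88 and 0.39, HEATR3, which imports RPL5 and RPL11, by 0.53, and GRWD1, which serves RPL3, by 0.38. Relative to their neighbours, 2 of the 6 were higher (HEATR3 and PDCD2L) and 1 was lower (PDCD2). In the list of the 5S particle and MDM2, 5 of 7 listed genes were higher and 0 lower, among them CDKN1A, a cell cycle inhibitor, at log2 2.12. RRS1 and RPF2, which load that particle onto the 60S subunit, rose by 0.71 and 0.31 in the same list. MDM2 rose by 0.18 (adjusted p = 0.0466), a call lost with edgeR (adjusted p = 0.0610) and DESeq2 (adjusted p = 0.0770), and relative to its neighbours it was lower by 0.24. Relative to neighbours, 4 of the 7 were higher and 1, MDM2, was lower.

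Other messages with a TOP tract had 16 listed genes of 24, of which 10 were higher and 3 were lower (median log2 fold change 0.23). FAU and RACK1 are among the 10. EIF3H, EEF1D, EIF3E and PABPC1 led with 0.46, 0.41, 0.41 and 0.40, and all 4 lie on chromosome 8. Relative to its neighbours EEF1D was lower by 0.20, and EIF3H, EIF3E and PABPC1 stood at -0.04, 0.06 and -0.10 and did not pass. TPT1 fell from 21166 ± 1112 to 17234 ± 1277.

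Regulators of these messages and of mTORC1 split, with 6 higher and 7 lower of 13 listed. DDIT4, an inhibitor of mTORC1 signalling, fell by 1.40 and TSC1, part of the brake on RHEB, by 0.89 on the log2 scale. RHEB, the activator of mTORC1, rose by 0.68 and EIF4EBP2, a repressor of cap-dependent translation, by 0.57. LARP1, which binds the TOP tract, rose from 7091 ± 170 to 8536 ± 574. Factors of stalled ribosomes had 3 higher and 3 lower of 6 listed. GCN1 rose by 0.43, while ASCC3, ZNF598 and RIOK3 fell by 0.43, 0.38 and 0.38. Mitochondrial ribosomal proteins, which build the separate ribosome of that organelle, had 44 genes higher and 7 lower of 54 tested, with a median log2 fold change of 0.35. Without the length and GC trend 26 were higher and 9 lower, and relative to neighbours 20 were higher and 4 lower of 53. Their difference from the cytosolic set was not tested.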

How the data were processed

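RNA was sequenced from 3 control and 3 SETD8 knockout libraries. Per the labels' protocols, poly-T beads enriched the messenger RNA and the library kit was directional. HISAT2, DESeq2 and the build hg38 stand in the submitters' processing notes. The tool that counted genes, and whether it used strand, was not given in the sources used here. Per library, the deposited values are a signal: read counts that the authors divided by a size factor, since all were whole multiples (within 0.001) of the value of 1 read. For control 3 and SETD8 knockout 2 that value, 0.991 and 0.993, is near 1, and 100% of their values were whole multiples of it as well. The authors also deposited a log2 fold change and p-values, adjusted over 19860 genes.

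Genes with a mean of at least 10 (7516) were compared two-sided on log2(value + 1) by limma-trend (limma version 3.58.1 in R version 4.3.3), with Benjamini-Hochberg adjustment over 19860 genes; fold changes on this scale understate low genes. The neighbour fit used the same test on values less the per-library median deviation of at least 5 tested genes within 5 Mb. Tests were also run on simulated data in which few genes changed and, for the neighbour fit, a single chromosome was shifted. In these data most genes were called, so that check does not show how the tests behave here. Pseudogenes were aligned to parent transcripts (GENCODE release 29) with BLAST 2.17.0. The members and gene lists were chosen with earlier results of these data known. Genes given library by library were those of highest level, largest change or opposite direction, members that missed the call, and disease genes; for other lists, the called genes of largest change with a mean of at least 50. Alternatives were TMM and upper-quartile scaling, edgeR 4.0.16 and DESeq2 1.42.0 on recovered reads, other filters and pseudocounts, a replicate block, removal of a length and GC trend, and leaving out each library. Some genes are not reported here: they stay in the counts but are neither named nor drawn.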

Additional observations from a re-analysis of the deposited data

How the results depend on the processing

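All 39 members kept the direction of their log2 fold change under both scalings, both filters, both pseudocounts, edgeR, DESeq2, the replicate block and each left-out library; RPL41, not called, turned when a length and GC trend was removed. Upper-quartile scaling left 5 60S members and 1 processed pseudogene higher. Without a filter 7 pseudogenes were higher, and with a mean of at least 50 there were 5 lower. Removing a length and GC trend left 0 pseudogenes higher and turned RPS28P7 (-0.4243), RPL15P3 (-0.1424), RPL6P27 (-0.1381) and RPL13AP5 (-0.2362). The cause was not tested.

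Relative to neighbours within 5 Mb, 11 members were higher and 3 lower, 3 60S members were lower, 2 40S members were higher and 0 lower, 2295 of all genes were higher, and the members' median was 0.0488. Signs turned for RPL8 (-0.0037), RPL4 (-0.1969), RPL38 (0.0801), RPS15A (0.1619), RPS14 (-0.0228), RPS4X (0.1311), RPL27 (0.016), RPL13 (-0.188), RPL19 (0.3164), RPS19BP1 (-0.0543), RPL23 (0.1487), RPL35A (0.1821), RPL7A (0.244), RPL37 (-0.1323), RPL39P3 (0.0817) and RPS28P7 (-0.0786). RPL13A (-0.1311) and RPS3A (0.0488), called neither here nor in the main fit, turned as well. With a window of 10 Mb 5 members were lower than their neighbours, and with the whole chromosome 6 were.

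Leaving out each library gave 13 to 23 members higher and 9 to 14 lower, 5 to 12 60S members higher, and 1 to 4 processed pseudogenes higher and 4 to 7 lower. A replicate block gave 21 members higher and 12 lower, with RPL17 and RPL21 gained. The counts over all tested genes in these fits are not given here. Same-numbered libraries did not deviate together (correlations 0.0086, -0.0033 and -0.0499), so the numbers were not read as pairs.

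Depth limits the low pseudogenes, of which 7 of 22 were under the mean of 10 and were not tested. Genes outside the table, and total library depth, were not analysed here. Without RPS2, a setting chosen after seeing the data, the 40S share differed by -0.0008 percentage points between groups.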
